A study of Homo sapiens with 11 samples.

Results

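Cancer cells can hold back lymphocytes, natural killer cells and macrophages by displaying ligands for receptors on those cells. The 10 ligand genes described here were taken from a list of names: PVR, PVRL2 and PVRL3 (nectin family), ICOSLG, CD274, PDCD1LG2 and CD276 (B7 family), CD47, TNFRSF14 and LGALS9. They were looked up by symbol among the 25590 genes of the expression tables, and 10 of 10 were found there and passed the filter on low counts. The question was whether RNA of these ligands in the cancer cells of a tumour differed after treatment with A2M*, the transformed form of the human proteinase inhibitor alpha2-macroglobulin.

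PC-3 is an established human prostate carcinoma cell line, and the tumours grew from it, with matrigel, under the skin of young adult male athymic nude mice (Crl:NU-Foxn1nu). The control group (PBS, n = 5, tumours T123 to T127, named by their number in the labels) had received PBS and the treated group (A2M*, n = 6, tumours T128 to T132 and T112) had received A2M*, both by repeated injection into the abdominal cavity. All 11 tumours shared the cell line and the host strain, which lacks a thymus and has few mature T cells but keeps natural killer cells and macrophages. Each tumour gave 1 RNA sequencing library, and the values are those of reads assigned to the human genome. Reads from the mouse cells of the tumours were not analysed here, so ligands on host cells are outside these values.

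The ligands act in separate receptor systems. PVR and the nectins PVRL2 and PVRL3 are adhesion molecules that engage the inhibitory receptors TIGIT, CD96 and PVRIG or the activating receptor CD226 on T and natural killer cells. ICOSLG costimulates T cells through ICOS, CD274 (PD-L1) and PDCD1LG2 (PD-L2) engage PD-1, and CD276 (B7-H3) is a relative that is abundant on many carcinomas. CD47 signals to macrophages through SIRPA, TNFRSF14 (HVEM) binds BTLA, CD160 and LIGHT, and LGALS9 (galectin 9) is a sugar-binding protein that binds TIM-3, among others. Interferon gamma is the best known inducer of CD274.

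Totals of counted reads lay between 16958533 and 35874381 per tumour (median 32421291 in PBS and 26301439 in A2M*), so that 3 counts equalled 0.0836 to 0.177 RPM. The keratin genes KRT8 and KRT18 were at 385 to 628 CPM in every tumour, and KLK3, which PC-3 cells lack, had 0 counts. In the lymphocyte marker list 7 of 9 genes stayed under 1 CPM in every tumour, CD2 was at 0 counts, and the summed level was 5.17 to 6.70 CPM in PBS and 4.0 to 5.78 CPM in A2M*. In the macrophage list C1QA, C1QB and TYROBP were at 0 counts and the sum was 11.8 to 14.2 CPM in PBS and 13.6 to 15.4 CPM in A2M*. Other genes of these lists were measured at low levels, with LCK at 2.16 to 3.95 CPM, PTPRC at 0.938 to 2.63 CPM, LYZ at 6.28 to 7.34 CPM and CSF1R at 1.39 to 4.76 CPM, and their part in the ligand values was not tested.

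Sequences upstream of 4 ligand genes are shown because these genes form the most alike pairs described further on, PVR with CD274 and PVRL2 with TNFRSF14. They are the 250 bases before the annotated start on the strand of the gene, from RefSeq (GRCh38.p14). Capitals mark 3 motifs searched on both strands: an interferon regulatory factor element (a pair of GAAA half-sites with any 2 bases between them), TTCNNNGAA (an element of interferon gamma response) and the GC box GGGCGG. The windows are PVR at chr19:44643660-44643909, CD274 at chr9:5450292-5450541, PVRL2 at chr19:44846047-44846296 and TNFRSF14 at chr1:2556121-2556370, all on the plus strand.
PVR: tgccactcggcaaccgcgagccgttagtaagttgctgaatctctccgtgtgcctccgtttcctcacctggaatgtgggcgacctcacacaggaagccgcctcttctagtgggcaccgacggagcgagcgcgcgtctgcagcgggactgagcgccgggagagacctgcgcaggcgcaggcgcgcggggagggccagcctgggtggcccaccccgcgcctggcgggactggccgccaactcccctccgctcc
CD274: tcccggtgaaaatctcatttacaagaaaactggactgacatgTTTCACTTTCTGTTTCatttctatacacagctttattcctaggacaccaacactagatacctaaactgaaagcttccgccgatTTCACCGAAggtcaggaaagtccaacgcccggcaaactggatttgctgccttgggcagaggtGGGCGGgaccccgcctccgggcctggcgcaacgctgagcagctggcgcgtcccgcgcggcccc
PVRL2: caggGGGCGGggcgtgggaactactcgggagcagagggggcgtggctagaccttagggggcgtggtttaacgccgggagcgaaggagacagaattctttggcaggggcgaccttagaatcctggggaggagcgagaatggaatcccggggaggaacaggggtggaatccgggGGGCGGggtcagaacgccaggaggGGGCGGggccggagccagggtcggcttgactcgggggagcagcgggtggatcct
TNFRSF14: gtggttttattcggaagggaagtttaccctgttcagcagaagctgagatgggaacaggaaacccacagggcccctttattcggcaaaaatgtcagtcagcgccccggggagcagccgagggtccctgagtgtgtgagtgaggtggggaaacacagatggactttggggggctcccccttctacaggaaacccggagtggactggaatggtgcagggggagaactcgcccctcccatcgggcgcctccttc

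The CD274 window held 2 matches of the interferon regulatory factor element, which overlap each other and are read on the opposite strand, 1 match of TTCNNNGAA and 1 GC box. Of the 35116 windows of this length in the RefSeq table, 3.02% held the first motif, 6.57% the second and 42.6% a GC box. PVRL2 had 3 GC boxes, and the windows of PVR and TNFRSF14 had none of the 3 motifs. Neither PVR and CD274 nor PVRL2 and TNFRSF14 could therefore share a motif of the 3. The relation of these motifs to the likeness of the pairs was not tested. Motifs of NF-kB and AP-1, the hypoxia response core ACGTG and TATAAA were also searched. The windows of PVR, CD274, PVRL2 and TNFRSF14 held none of them. Windows were found for 9 of the 10 ligands, and the 9 included no other with either of the interferon-related motifs. PDCD1LG2 was not in the table.

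Expressed per exon length (RPKM), the ligands differed widely in mean level over the 11 tumours, and CD47 was 14.6-fold above PDCD1LG2. CD276 (mean 35.0 ± 4.07 SD, n = 11) and CD47 (34.0 ± 2.15) were the most abundant. PVRL2 (18.7 ± 2.16), ICOSLG (14.4 ± 3.02), TNFRSF14 (12.3 ± 1.72) and PVR (11.0 ± 1.33) stood in the middle. CD274 (5.62 ± 1.12), PVRL3 (5.54 ± 0.948), LGALS9 (4.67 ± 1.5) and PDCD1LG2 (2.33 ± 0.704) were lowest. Among all 16630 genes tested, 13.1% had a higher mean RPKM than CD276 and 68.7% a higher one than PDCD1LG2.

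**Figure D1:**
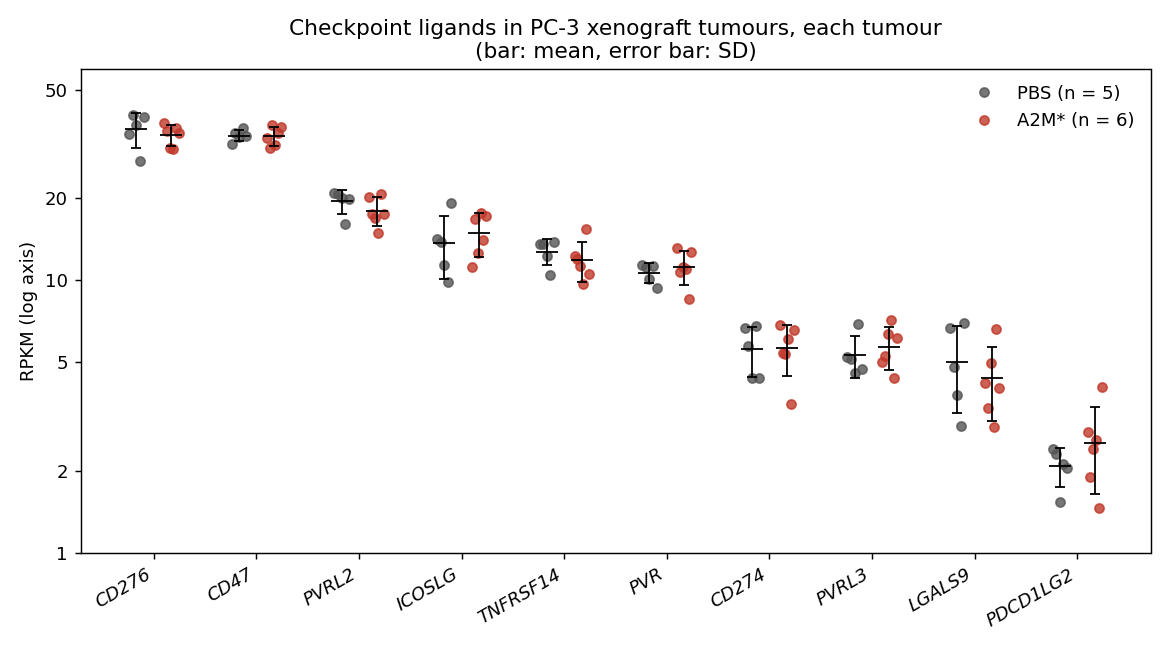
RPKM of the 10 checkpoint ligands (log axis) in each PBS (grey, n = 5) and A2M* (red, n = 6) tumour, with the mean (bar) and SD (error bar) of the group, ordered by the mean over all tumours. The grey and red points of each ligand cover overlapping ranges, from CD276 near 35 RPKM down to PDCD1LG2 near 2 RPKM.

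Neighbours in this order were compared within the tumour by a two-sided exact sign-flip permutation test of log2(RPKM + 0.1), with p adjusted over the 9 pairs. CD47 exceeded PVRL2 in 11 of 11 tumours (mean log2 difference 0.86, adjusted p = 0.00439), and PVR exceeded CD274 in 11 of 11 (0.97, adjusted p = 0.00439). LGALS9 exceeded PDCD1LG2 in 10 of 11 tumours (0.96, adjusted p = 0.00586) and PVRL2 exceeded ICOSLG in 10 of 11 (0.40, adjusted p = 0.0198). The other 5 neighbours did not pass 0.05: CD276 and CD47 differed by 0.03 on the log2 scale, ICOSLG and TNFRSF14 by 0.21, TNFRSF14 and PVR by 0.16, CD274 and PVRL3 by 0.01, and PVRL3 and LGALS9 by 0.29 (adjusted p between 0.172 and 0.891). RPKM divides by the exon length that the authors assigned to a gene, so the order also depends on which isoforms that length covers.

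Levels also varied from tumour to tumour to different degrees. CD47 was the steadiest ligand, with a coefficient of variation of its CPM of 6.80%. LGALS9 (32.1%) and PDCD1LG2 (30.2%) varied most and also had the fewest counts, 102 to 443 and 78 to 315 per tumour. The median over the 10 ligands was 15.3%, beside 13.1% over all genes tested.

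Between the treatments, no ligand passed the threshold of 0.01 on the adjusted p (edgeR quasi-likelihood test, Benjamini-Hochberg over 16630 genes), where 0% of all genes did. At an unadjusted p under 0.05 the count was 0 of 10 ligands beside 7.08% of all genes (1178 genes, with 3.55% of all genes higher and 3.53% lower in A2M*). DESeq2 and limma-voom also called 0 ligands. Fitted differences pointed up for 4 ligands (PVR, PVRL3, ICOSLG, PDCD1LG2) and down for 6, with a median log2 fold change of -0.03 beside -0.0021 over all genes tested. The 95% interval of the difference lay within 2-fold either way for 10 of 10 ligands and within 1.5-fold for 8, the exceptions being PDCD1LG2 and LGALS9. Groups overlapped for each of the 10 ligands, while CPM of the groups did not overlap for 0.71% of all genes tested. The p-values measure the spread between the tumours of 1 experiment.

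**Figure D2:**
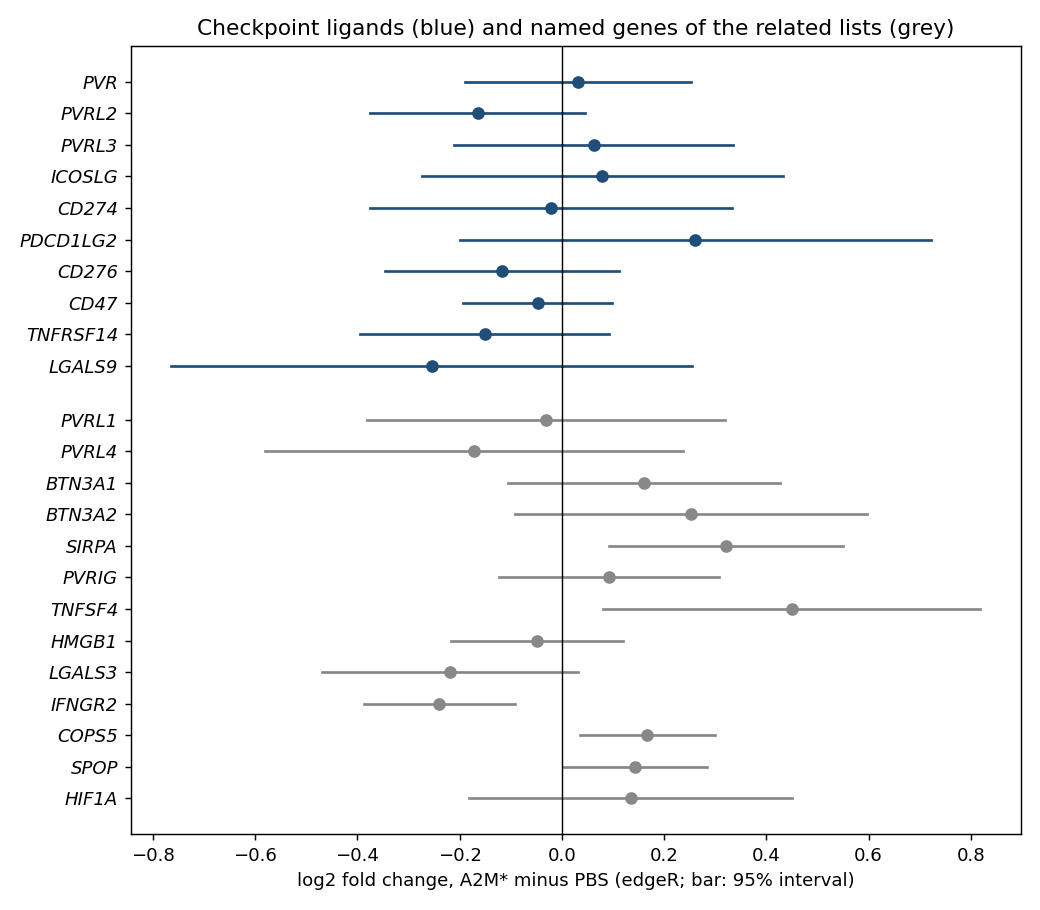
Log2 fold change of A2M* over PBS (x axis, edgeR fit; bars are 95% intervals) for the 10 checkpoint ligands (blue) and the named genes of the related lists (grey). The interval of each blue point crosses 0, and those of PDCD1LG2 and LGALS9 are the widest of the ligands.

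Among the ligands of TIGIT and CD226, PVR (chromosome 19, 45147098 to 45169430, plus strand, GRCh37) was at 11.4, 11.2, 10.1, 11.3 and 9.36 RPKM in PBS tumours T123 to T127. In A2M* it ran from 8.54 to 13.2 RPKM with a median of 11.1, so that 2 treated tumours lay above and 1 below the whole PBS range. Means were 10.7 ± 0.916 (SD, n = 5) and 11.2 ± 1.64 RPKM (n = 6). The fitted log2 fold change was 0.03 (SE 0.103, 95% interval -0.19 to 0.25, adjusted p = 0.970). Here and below, log2 fold changes come from the edgeR fit on scaled counts and can differ from the ratio of the RPKM means. PVR encodes the poliovirus receptor, the ligand TIGIT binds most tightly. Of its exon bases in GENCODE 19.5% coincide with another GENCODE entry on the same strand. The authors counted on RefSeq genes, and whether that entry affects the level of PVR was not tested.

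PVRL2, now named NECTIN2 (chromosome 19, 45349432 to 45392480, plus strand), is the ligand that PVRIG binds. It read 21.0, 20.8, 20.1, 16.1 and 19.9 RPKM in the PBS tumours and 14.9 to 20.8 RPKM (median 17.5) in A2M*. Tumour T126 stood below the other PBS tumours, and 5 of 6 treated tumours fell inside the PBS range. The low end of that range was tumour T126 alone. In CPM the other PBS tumours were at 72.5 to 77.6, and the treated tumours at 51.8 to 72.5 (median 62.6). Means were 19.6 ± 2.01 and 18.0 ± 2.19 RPKM. The fitted log2 fold change was -0.16 (SE 0.0981, 95% interval -0.38 to 0.05, adjusted p = 0.781), with the lowest adjusted p among the ligands. Without tumour T126 the same fit gave -0.23 (adjusted p = 0.465). PVR and PVRL2 lie 180 kb apart on the same chromosome.

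PVRL3, now NECTIN3 (chromosome 3, 110788918 to 110994410, plus strand), a partner of the other nectins at cell junctions, was at 5.25, 5.15, 4.58, 6.90 and 4.74 RPKM in PBS. In A2M* it lay between 4.38 and 7.15 RPKM with a median of 5.70. Tumour T126 was the highest PBS tumour, the reverse of PVRL2. The log2 fold change was 0.06 (SE 0.127, 95% interval -0.21 to 0.34, adjusted p = 0.952).

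ICOSLG (chromosome 21, 45635265 to 45661329, minus strand), the ligand of ICOS, measured 14.1, 13.8, 11.4, 9.91 and 19.2 RPKM in the PBS tumours, with tumour T126 lowest and tumour T127 highest. The A2M* tumours lay between 11.2 and 17.6 RPKM (median 15.5), and 6 of 6 were inside the PBS range. Means were 13.7 ± 3.55 and 14.9 ± 2.70 RPKM, and the fitted log2 fold change was 0.08 (SE 0.164, 95% interval -0.27 to 0.43, adjusted p = 0.955). Of its exon bases in GENCODE 16.7% coincide with another entry on the same strand, which GENCODE types as an artifact. Whether that entry affects the level of ICOSLG, counted on RefSeq genes, was not tested.

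The PD-1 ligands lie side by side on chromosome 9, 40.0 kb apart. CD274 (5450503 to 5470566, plus strand) was at 6.67, 5.72, 4.39, 6.79 and 4.39 RPKM in PBS and between 3.51 and 6.83 RPKM (median 5.76) in A2M*. Treated tumour T132 was the lowest of the 11, and the log2 fold change was -0.02 (SE 0.165, 95% interval -0.38 to 0.33, adjusted p = 0.988). PDCD1LG2 (5510531 to 5571282, plus strand) was at 2.41, 2.30, 1.54, 2.11 and 2.04 RPKM in PBS and between 1.46 and 4.05 RPKM (median 2.50) in A2M*. Treated tumour T112 carried the highest PDCD1LG2 value and tumour T132 the lowest. Its log2 fold change of 0.26 (SE 0.214, 95% interval -0.20 to 0.72, adjusted p = 0.864) rested largely on tumour T112, and was 0.07 when that tumour was left out.

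CD276 (chromosome 15, 73976307 to 74006855, plus strand), whose receptor is not settled, was at 34.6, 40.5, 37.2, 27.4 and 39.8 RPKM in PBS and between 30.3 and 37.7 RPKM (median 35.1) in A2M*. Each treated tumour lay inside the PBS range, and tumour T126 was lowest of the 11. The low end of that range was tumour T126 alone, since the other PBS tumours were at 34.6 RPKM or above. The log2 fold change was -0.12 (SE 0.107, 95% interval -0.35 to 0.11, adjusted p = 0.876). Without tumour T126 the same fit gave -0.21 (adjusted p = 0.472).

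CD47 (chromosome 3, 107761938 to 107810709, minus strand), the signal that protects cells from uptake by macrophages, was at 31.8, 34.7, 33.6, 36.3 and 33.8 RPKM in PBS. In A2M* it lay between 30.7 and 37.1 RPKM with a median of 34.0. The means coincided at 34.0 ± 1.64 and 34.0 ± 2.66 RPKM, and the log2 fold change of -0.05 had the narrowest interval of the ligands (SE 0.0677, 95% interval -0.19 to 0.10, adjusted p = 0.923). In linear terms this interval ran from 0.875-fold to 1.07-fold.

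TNFRSF14 (chromosome 1, 2487078 to 2496821, plus strand) was at 13.7, 13.6, 12.3, 10.5 and 13.8 RPKM in PBS and between 9.68 and 15.4 RPKM (median 11.6) in A2M*. Tumour T131 was the lowest and tumour T132 the highest of the 11, both treated. The log2 fold change was -0.15 (SE 0.113, 95% interval -0.39 to 0.09, adjusted p = 0.842). An antisense transcript covers 13.3% of its exon bases, and the library kit does not mark strand, so reads of the 2 cannot be told apart there.

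LGALS9 (chromosome 17, 25956824 to 25976586, plus strand) was at 6.67, 4.81, 3.81, 2.92 and 7.0 RPKM in PBS and between 2.90 and 6.63 RPKM (median 4.13) in A2M*. It spread widely in both groups, with treated tumour T132 beside PBS tumours T123 and T127 at the top. The log2 fold change was -0.26 (SE 0.237, 95% interval -0.76 to 0.25, adjusted p = 0.882). The near copies LGALS9B and LGALS9C had at most 14 and 10 counts in a tumour. Of the 50-base stretches of LGALS9 transcripts 20.1% occur in other genes, which makes its level uncertain. That share was larger for PVR (27.6%) and ICOSLG (22.5%).

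The ligands varied together in sets from tumour to tumour. Over the 45 pairs of ligands, 8 had a Pearson r of log2 CPM of at least 0.7 across the 11 tumours and 3 had one of at most -0.7. The share of all pairs of genes tested with such an r was not computed, so these counts do not set the ligands apart. For these pairs, between 5 and 1548 of the other 16629 genes had an r at least as extreme with 1 gene of the pair, the partner included. These coefficients describe 11 libraries that share 1 cell line, and the r values below are over those 11 tumours unless a group is named.

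The first set was PVR, CD274 and PDCD1LG2. PVR and CD274 had r = 0.907 (Spearman rho 0.882), and the relation was present within PBS (r = 0.842, n = 5) and within A2M* (r = 0.961, n = 6). Of the other 16629 genes tested, 5 had an r with PVR at least as high, CD274 itself included. PVR and PDCD1LG2 had r = 0.807 (0.486 within PBS and 0.882 within A2M*). The neighbours CD274 and PDCD1LG2 had r = 0.757 (0.670 within PBS and 0.864 within A2M*). Treated tumour T132 was low in the 3 genes (8.54, 3.51 and 1.46 RPKM), while treated tumours T128 (13.2, 6.83 and 2.79 RPKM) and T112 (12.7, 6.57 and 4.05 RPKM) were high. Without the 2 tumours farthest from the median of PVR, r of PVR was 0.787 with CD274 and 0.735 with PDCD1LG2. Without the 2 farthest from the median of CD274, r of CD274 and PDCD1LG2 was 0.664.

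The second set was PVRL2, TNFRSF14, CD276 and LGALS9, with PVRL3 running against it. PVRL2 and TNFRSF14 had r = 0.910 (0.936 within PBS and 0.876 within A2M*), and PVRL2 and CD276 had r = 0.853. TNFRSF14 and LGALS9 had r = 0.817, PVRL2 and LGALS9 had 0.720, and CD276 and LGALS9 had 0.542. PVRL3 ran opposite to TNFRSF14 (r = -0.899), to PVRL2 (r = -0.845) and to CD276 (r = -0.742). Without the 2 tumours farthest from the median of the gene named first, r of PVRL2 was 0.813 with TNFRSF14, 0.756 with CD276 and 0.437 with LGALS9, and r of PVRL3 was -0.816 with TNFRSF14 and -0.457 with CD276. An r at least as high as that of PVRL2 and LGALS9 was found for 1346 of the other 16629 genes with PVRL2, and one at least as low as that of PVRL3 and CD276 for 1548 genes with PVRL3, the partner itself included in both counts.

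**Figure D3:**
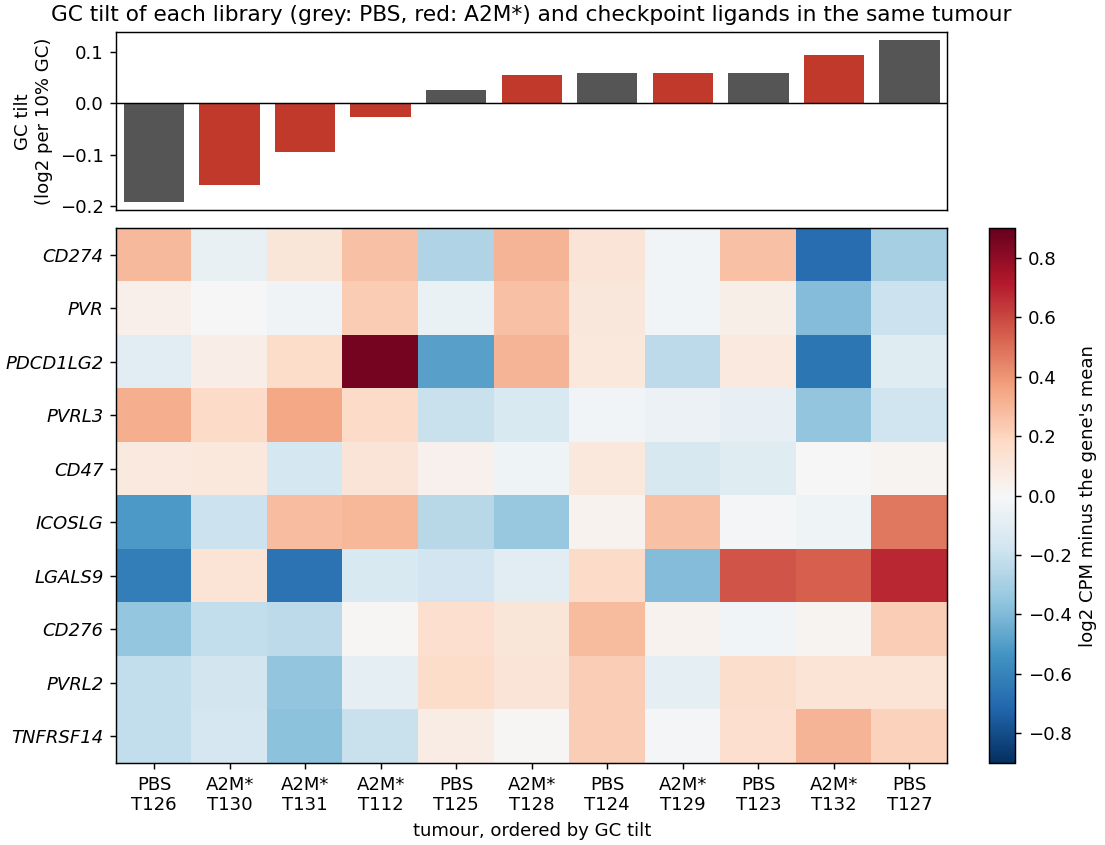
Bars in the upper panel give the GC tilt of each library (log2 per 10% GC; grey PBS, red A2M*), and the lower panel colours the log2 CPM of each checkpoint ligand minus its mean over the 11 tumours, in the same order of tumours. CD276, PVRL2 and TNFRSF14 go from blue to red with rising tilt, from -0.192 in tumour T126 to 0.123 in tumour T127, and PVRL3 goes from red to blue.

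The base composition of the libraries moved with the second set. A GC tilt was computed for each library as the slope of a gene's deviation from its mean log2 CPM on its transcript GC content. That content was taken from the longest GENCODE transcript of the gene, a protein-coding one where it had any. It ran from -0.192 log2 units per 10% GC in PBS tumour T126 to 0.123 in PBS tumour T127, and did not separate the groups (0.0147 ± 0.121 in PBS and -0.0122 ± 0.0994 in A2M*, two-sided exact permutation test over 462 labelings, p = 0.725). The ligands span transcript GC contents of 35.3% (PVRL3) to 62.2% (TNFRSF14). The GC-rich CD276, TNFRSF14 and PVRL2 (60.7% GC) followed the tilt with r of 0.870, 0.817 and 0.796, and the GC-poor PVRL3 opposed it with r = -0.861. GC content did not order all ligands, since the GC-rich ICOSLG (59.0%) had r = 0.441 with the tilt, the GC-poor CD47 (37.1%) had -0.263 and LGALS9 (53.7%) had 0.640. PVR (52.1% GC) had r = -0.274 with the tilt and CD274 (40.7%) had -0.405.

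When the median deviation of genes of like GC was taken out of each tumour, the first set moved little, with r = 0.902 for PVR and CD274 and 0.734 for CD274 and PDCD1LG2. In the second set PVRL2 and TNFRSF14 went to r = 0.716, PVRL2 and CD276 to 0.584, TNFRSF14 and LGALS9 to 0.718, and CD276 and TNFRSF14 from 0.753 to 0.226. PVRL3 and TNFRSF14 went from -0.899 to -0.653, PVRL3 and CD276 from -0.742 to -0.175, and no pair stayed at or below -0.7. CD276 and CD47, at r = 0.103 as measured, reached 0.813, and 6 pairs in all were then at 0.7 or more. The corrected values of both genes followed the tilt, with r of 0.630 for CD276 (0.870 before) and 0.634 for CD47 (-0.263 before). The part of the tilt in their r of 0.813 was not tested. The SD of log2 CPM over the 11 tumours shrank from 0.199 to 0.121 for CD276 and from 0.227 to 0.143 for PVRL3, and grew from 0.0996 to 0.135 for CD47. Whether the tilt arose in the tumours or in the libraries was not tested.

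**Figure D4:**
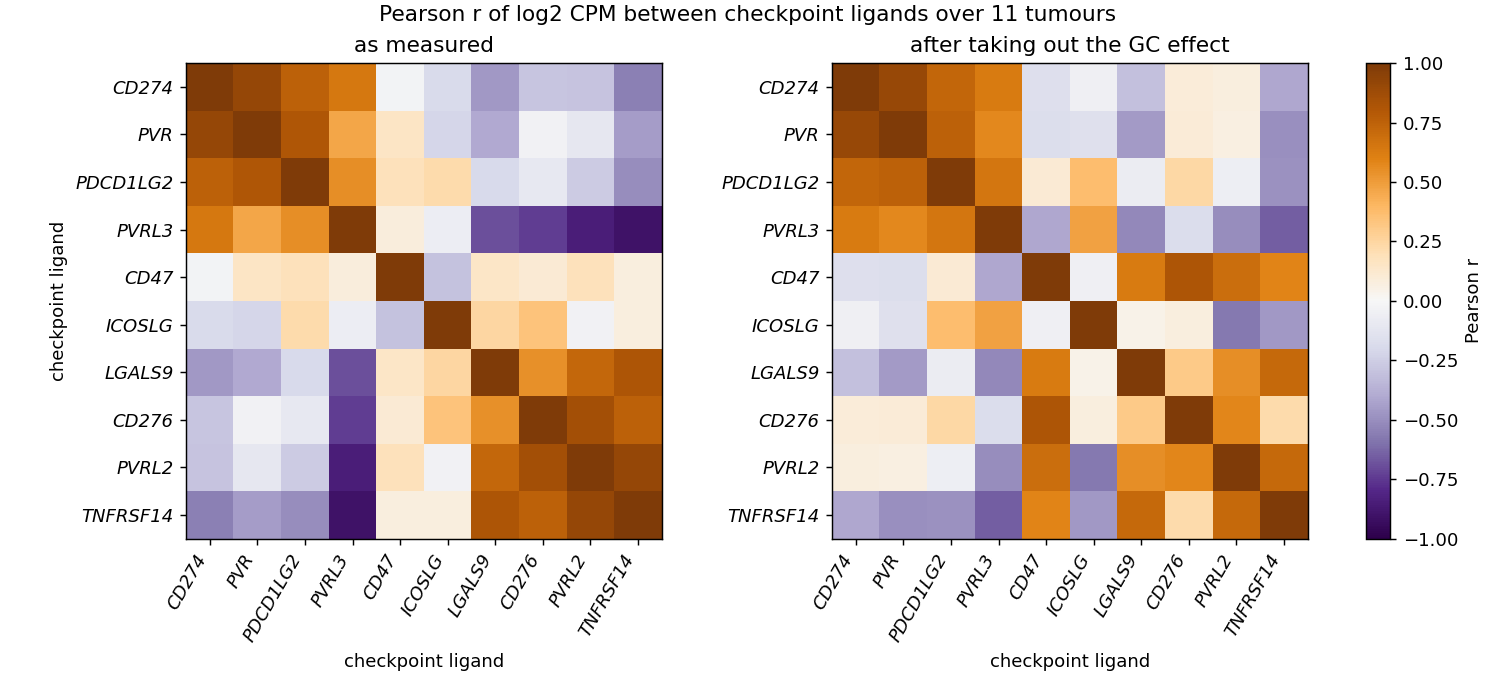
Pearson r of log2 CPM between each pair of checkpoint ligands over the 11 tumours (orange positive, purple negative), as measured on the left and after the effect of transcript GC was taken out on the right. The block of CD274, PVR and PDCD1LG2 looks alike on both sides, while the dark purple of PVRL3 against TNFRSF14, PVRL2 and CD276 fades on the right.

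With that GC correction inside the fit, a choice made after the data were seen, 0 of 10 ligands were called (lowest adjusted p = 0.524). PVRL2 was the 1 ligand with an unadjusted p under 0.05, with a log2 fold change of -0.14 (SE 0.0620, adjusted p = 0.524) and an error below that of the uncorrected fit. At an unadjusted p under 0.05, 9.32% of all genes passed in that fit.

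For the 8 ligands with a mean of at least 10 CPM, the genes most alike were sought among the genes tested by Pearson r of log2 CPM over the 11 tumours. Each r given is thus among the 2 highest of 16629 genes. THBS1, which encodes thrombospondin 1 and was abundant at a mean of 2305 CPM, came first for PVR (r = 0.924, and 0.848 after the GC correction), followed by DEGS1 (0.918). Without the 2 tumours farthest from the median of PVR, r was 0.757 with THBS1 and 0.863 with DEGS1. CD274 was followed by the long noncoding RNA LINC00173 (r = 0.950), whose mean of 0.690 CPM is sparse, and by the nuclear export factor XPO5 (0.932). Without the 2 tumours farthest from the median of CD274, r was 0.920 with LINC00173 and 0.778 with XPO5. ICOSLG went with ENG (endoglin, r = 0.935, and 0.746 after the GC correction) and with the collagen gene COL1A1 (r = 0.886, and 0.887 corrected). In the fibroblast list COL1A1 ran from 293 to 884 CPM, COL3A1 from 6.70 to 43.9 CPM, COL1A2 from 1.14 to 5.31 CPM and PDGFRB from 0.269 to 1.87 CPM, and LUM and DCN had at most 5 and 3 counts in a tumour. Its summed level was 317 to 694 CPM in PBS and 318 to 926 CPM in A2M*, and the part of these genes in the ICOSLG values was not tested.

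PVRL2 was most like LEMD2 (r = 0.981) and MARCH2 (0.965), and LEMD2 went to 0.600 after the GC correction. TNFRSF14 was most like FCGRT, the neonatal Fc receptor, at r = 0.979 (0.938 corrected), and STK19 (0.967). CD276 was most like CD99 (0.972, and 0.929 corrected) and PIGS (0.965). PVRL3 was most like the trafficking genes CLINT1 and AP3B1 (both 0.977, and 0.931 and 0.890 corrected). CD47 was most like LEPROT (0.895, and 0.921 corrected) and CLEC7A (0.891, and 0.665 corrected). THBS1, a ligand of the CD47 protein, was among the closest genes of PVR and not of CD47.

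Several receptors of the ligands were at or near 0 in the human counts. ICOS had 0 counts in each of the 11 tumours, which allows up to 0.177 RPM in the shallowest library, and TIGIT, PDCD1 and CTLA4 had at most 2 counts in a tumour. Of 16 receptor genes 11 passed the filter, 0 were called, and 1 had an unadjusted p under 0.05 in the direction of A2M* beside 3.55% of all genes. That gene was SIRPA, the receptor of CD47, at 59.9 ± 9.46 CPM in PBS and 74.8 ± 8.77 CPM in A2M* (log2 fold change 0.32, SE 0.106, adjusted p = 0.640). PVRIG, the receptor of PVRL2, was at 13.7 ± 1.62 and 14.6 ± 1.49 CPM (log2 fold change 0.09, adjusted p = 0.904).

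Of 3 other nectins and nectin-like ligands 2 were tested and 0 had a p under 0.05. PVRL1 was at 75.1 ± 12.9 CPM in PBS and 73.6 ± 17.3 CPM in A2M*, and PVRL4 at 35.7 ± 8.92 and 31.8 ± 8.60 CPM. Of 12 other B7 and butyrophilin genes 9 were tested and 0 had a p under 0.05, with BTN3A1 at 67.0 ± 14.6 and 74.9 ± 9.14 CPM and BTN3A2 at 61.9 ± 17.9 and 73.8 ± 11.9 CPM. CD80 and CD86, the ligands of CD28 and CTLA4, had at most 5 counts in a tumour.

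Of 16 other immune ligands 15 were tested, 0 were called and 1 had a p under 0.05, beside 7.08% of all genes. TNFSF4, the OX40 ligand, was at 2.22 ± 0.559 CPM in PBS and 3.03 ± 0.423 CPM in A2M* (log2 fold change 0.45, SE 0.171, adjusted p = 0.643). The abundant HMGB1 and LGALS3 were at 635 ± 45.7 and 272 ± 34.2 CPM in PBS and at 614 ± 55.5 and 234 ± 37 CPM in A2M* (adjusted p 0.935 and 0.760). 

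The 16 genes that regulate the ligands, such as CMTM6, which stabilises the CD274 protein, and the interferon gamma pathway, were all tested and 0 were called. At an unadjusted p under 0.05, 2 of 16 were higher and 1 was lower in A2M*, beside 3.55% and 3.53% of all genes. IFNGR2, a chain of the interferon gamma receptor, was at 66.2 to 72.3 CPM in PBS and at 48.5 to 62.7 CPM in A2M*, without overlap as for 0.71% of all genes (log2 fold change -0.24, SE 0.0685, adjusted p = 0.599). COPS5 (56.1 ± 2.22 and 63.0 ± 4.22 CPM, log2 fold change 0.17, adjusted p = 0.642) and SPOP (77.4 ± 4.65 and 85.5 ± 6.17 CPM, 0.14, adjusted p = 0.699), which act on the turnover of the CD274 protein, were the 2 higher ones. HIF1A (227 ± 34.8 and 249 ± 54.7 CPM) did not pass.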

How the data were processed

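Human transcripts were counted in 11 xenografts of PC-3 cells, 5 labelled PBS and 6 labelled A2M. Per the paper's methods and the labels, the authors made libraries with a TruSeq RNA kit (bcl2fastq 1.8.4 in the submitters' processing notes), separated human from mouse reads with xenome, aligned the human reads by TopHat2 to hg19 and assigned them to RefSeq genes with featureCounts. No strand setting is given in the sources used here. The authors deposited whole-number counts, the same counts as RPM (equal to count per 1e+06 within 4.99e-07) and RPKM. The 0 table columns without a sample needed no exclusion.

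Counts were filtered (filterByExpr, 16630 genes), scaled by TMM and tested with the edgeR 4.0.16 quasi-likelihood test in R 4.3.3, without covariates, at an adjusted p of 0.01. The standard error was the log2 fold change over the root of F. CPM is TMM-scaled, and log2 CPM used a prior count of 2. The biological coefficient of variation was 13.9%. Alternatives were RLE, upper quartile or no scaling, other filters, the exact and likelihood ratio tests, DESeq2 1.42.0, limma 3.58.1 voom, other thresholds, other pseudocounts, each tumour left out, and a GC offset (medians of 20 bins of transcript GC, known for 95.2% of genes tested). Intervals of fold changes include the spread between tumours, and floors of 3 counts cover counting error only.

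The ligands and the related lists were chosen with earlier results of these data known. Named are the ligands, from each related list the genes with an unadjusted p under 0.05 and the 2 with the highest CPM, and for ligands of at least 10 CPM the 2 most alike genes. CD80, CD86, ICOS, TIGIT, PDCD1, CTLA4, CMTM6, the cell type markers and the relation of THBS1 to CD47 were named after their values were seen. The values of 1 gene of the regulator list are not reported here. In the lists of fibroblast and endothelial markers, COL1A2 (higher) and VWF (lower in A2M) had an unadjusted p under 0.05, and none of the marker lists had a called gene. Positions are from GENCODE mapped to GRCh37, and promoters from RefSeq (GRCh38.p14). Figures used matplotlib 3.10.9 in Python 3.11.15.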

Additional observations from a re-analysis of the deposited data

Results flagged for a closer look

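In 56 groups of values of the ligands and the related lists, 3 had a tumour far from the rest of its group, where chance gives about 1 in 20 groups, or 2.8. PVRL2 in PBS tumour T126 was at 57.1 CPM, while the other PBS tumours were at 72.5 to 77.6 CPM. This tumour also had the lowest GC tilt of the 11 (-0.192 log2 units per 10% GC), and the part of the tilt in this value was not tested. BTN3A1 in PBS tumour T127 was at 92.3 CPM beside 57.2 to 66.6 CPM in the others. The galectin 9 copy LGALS9C in PBS tumour T123 was at 0.331 CPM beside 0.121 to 0.170 CPM in the others, a level of at most 10 counts.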

How the results depend on the processing

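The count of ligands called was 0 under each alternative, the GC offset included, and their adjusted p stayed at 0.453 or above. At an unadjusted p under 0.05, 2 of 10 ligands passed without PBS tumour T126 and 1 without A2M* tumour T132, where 0 passed with all tumours. The lowest adjusted p of the edgeR fit were those of PVRL2 (0.465) and CD276 (0.472) without tumour T126. Without tumour T132 the lowest was that of TNFRSF14 (0.453). Of all genes tested, 1679 of 16755 passed without tumour T126 and 1684 of 16605 without tumour T132, beside 1178 of 16630 with all tumours. Of all genes, 0 were called as reported, 1 (higher in A2M*) by each of the classic exact test, the likelihood ratio test and DESeq2, and 241 (122 higher, 119 lower) when edgeR and DESeq2 each had to give an unadjusted p of 0.01 or less. Of 210 log2 fold changes of ligands under alternatives, 201 kept their sign and 9 turned, in 4 ligands. CD274 became 0.017 with library size alone. Leaving out 1 tumour moved PVR between -0.021 and 0.10, PVRL3 between -0.0059 and 0.16, ICOSLG between -0.023 and 0.23, CD274 between -0.096 and 0.084, PDCD1LG2 between 0.07 and 0.38, LGALS9 between -0.40 and -0.10, CD276 between -0.21 and -0.06, CD47 between -0.08 and -0.02, TNFRSF14 between -0.23 and -0.09 and PVRL2 between -0.23 and -0.11. The number of neighbours in the order of levels that differed, 4 of 9, was 4 under each other pseudocount and without each tumour, and 0 in the PBS or A2M* tumours alone, where the smallest p possible before adjustment is 0.0625 and 0.0312 (exact sign-flip permutation). No paired analysis was possible because the groups share no tumour numbers. PDCD1LG2 and LGALS9 had the fewest counts, at 78 and 102 in the shallowest tumour. The part of depth in the spread of PDCD1LG2 and LGALS9 was not tested.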
